A study of Mus musculus with 2688 samples.

Results

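Microglia of the cortex were compared between 3 and 16 weeks of age in CD1 mice. The comparison rested on 342 single cells of 2402 kept in the whole series, and on 7 of its 51 region samples. A region sample is the sum of the counts of all kept cells that carry 1 replicate label of 1 region and age. The 3-week group was CD1, cortex, labelled WT, with 3 replicates of 58, 58 and 54 cells, and the 16-week group was CD1, cortex, labelled WT, with 4 replicates of 46, 42, 47 and 37 cells. No transgene, treatment or other allele was named in the labels of either group. The cells had been taken after perfusion from a Percoll interphase, stained for CD11b, CD45, Ly6C, Ly6G and CD206, and sorted 1 per well for SmartSeq2, a full-length method without molecular identifiers. Counts are therefore reads, and amplification copies cannot be removed. The series design gives 3 to 4 mice for each region and age, and says that several regions were taken from the same mice, so samples of different regions are not all independent.

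Microglia are the resident macrophages of the brain and depend on signalling through the CSF1 receptor. In the third week after birth they take up synapses and dying cells while circuits mature, and they later settle into a surveying state in which purinergic and chemokine receptors sense nearby cells. Complement C1q, lipid carriers such as apolipoprotein E and lysosomal proteases belong to their phagocytic equipment.

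The sorted identity was checked against 8 markers of microglia. Reads of at least 6 of them (Cx3cr1, P2ry12, Tmem119, Csf1r, Trem2, C1qa and Siglech among the markers) were present in 341 of 342 cells (99.7%). Of 380 sorted cortical wells 90.0% were kept, and the region samples held 7146319 to 12808796 counts. All 3-week cortical cells lay on 1 plate, shared with 3-week hippocampus, and all 16-week cortical cells lay on another, shared with 3-week spinal cord, so age and plate cannot be told apart within cortex. In replicate 1 of 3 weeks 29 of the 58 cells lay in plate columns 1 and 2, whose deposited counts also hold those of other wells and were corrected. The median mitochondrial share of a cell was 0.767%, 0.838% and 0.658% at 3 weeks, and 1.94%, 2.16%, 1.58% and 1.67% at 16 weeks. The share of spike-in reads was 0.157% ± 0.008 (SD, n = 3) at 3 weeks and 0.237% ± 0.0336 (n = 4) at 16 weeks. Neither share overlapped between the ages (exact two-sided permutation p = 0.0286 each, the smallest that 35 splits allow; adjusted p = 0.0571 over 4 measures). Median counts per cell went from 142072 ± 26191 to 240794 ± 59731 (exact permutation p = 0.0857), and detected genes at 21121 reads per cell from 2081 ± 93.4 to 2028 ± 39.2 (exact permutation p = 0.314). The part of these measures in the gene changes below was not tested. In summed counts, fewer cells that express a gene and less RNA of it per cell cannot be told apart; the shares of cells given further on bear on this for 7 genes.

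Of 11753 genes tested 7 passed an adjusted p of 0.05 (0.0596%; edgeR's quasi-likelihood test with Benjamini-Hochberg adjustment), 3 higher at 16 weeks (0.0255%) and 4 lower (0.034%). The genes that rose were Malat1, Srgn and the ribosomal RNA row Rn18s-rs5, and those that fell were Cst3, Apoe, Smpd2 and Lag3. Unadjusted p was under 0.05 for 902 genes, and 12 genes had an adjusted p between 0.05 and 0.06. DESeq2 called 211, and a gene that did not pass is not shown to be unchanged. Over all genes tested the median log2 change was 0.05. With spike-in reads in place of library size that median moved to -0.30, and the split became 1 gene higher and 29 lower, so every change given here is relative to the bulk of the genes.

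Srgn encodes serglycin, the proteoglycan core that packs proteases and cytokines into secretory granules. Its level was 19.6, 16.4 and 12.7 CPM (counts scaled by TMM library size) at 3 weeks, and 143, 191, 150 and 133 CPM at 16 weeks. The lowest 16-week sample was above every 3-week sample by a wide margin. The log2 fold change was 3.25 ± 0.33 (SE), a 9.49-fold rise (edgeR adjusted p = 0.0133). Malat1, a long noncoding RNA retained in the nucleus at splicing speckles, had 2263, 2260 and 1911 CPM at 3 weeks and 4768, 4331, 4727 and 4525 CPM at 16 weeks. Within each age its samples lay close together, and the rise was 2.14-fold (log2 1.10 ± 0.10, edgeR adjusted p = 0.00964).

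Rn18s-rs5 is annotated as a pseudogene related to 18S ribosomal RNA. It had 6879, 6661 and 6728 CPM at 3 weeks and 9804, 9393, 10387 and 10458 CPM at 16 weeks (log2 0.57 ± 0.07, edgeR adjusted p = 0.0406). This value is uncertain as that of a single gene, because near-identical copies of ribosomal RNA exist and other annotated rows overlap it. With spike-in scaling its estimate was 0.21 with an adjusted p of 0.499, and Malat1 had an adjusted p of 0.0531.

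Apoe, the lipid carrier apolipoprotein E, had 1841, 2690 and 1853 CPM at 3 weeks and 527, 784, 453 and 634 CPM at 16 weeks. All 16-week samples lay below all 3-week samples. The fall was 3.55-fold (log2 -1.83 ± 0.21, edgeR adjusted p = 0.0255). Cst3, which encodes cystatin C, a secreted inhibitor of cysteine cathepsins, had 55813, 61691 and 56009 CPM at 3 weeks and 39370, 30924, 32933 and 36270 CPM at 16 weeks. No 16-week sample reached the lowest 3-week sample, and the fall was 1.66-fold (log2 -0.73 ± 0.08, edgeR adjusted p = 0.0255).

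Smpd2 encodes a neutral sphingomyelinase, which releases ceramide from membrane sphingomyelin. It had 90.9, 115 and 109 CPM at 3 weeks and 16.3, 17.4, 14 and 10.2 CPM at 16 weeks. This was the largest decrease among the 7 genes, 7.25-fold (log2 -2.86 ± 0.38, edgeR adjusted p = 0.0406). Its deposited span overlaps that of Mical1, and whether counting used strand is not given in the sources used here, which also bears on P2ry13 (within Med12l) and Gpr34 (within Cask). Lag3, a checkpoint receptor that binds MHC class II, had 859, 1063 and 1165 CPM at 3 weeks and 461, 501, 405 and 488 CPM at 16 weeks. Its fall was 2.22-fold (log2 -1.15 ± 0.15, edgeR adjusted p = 0.0406).

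**Figure D1:**
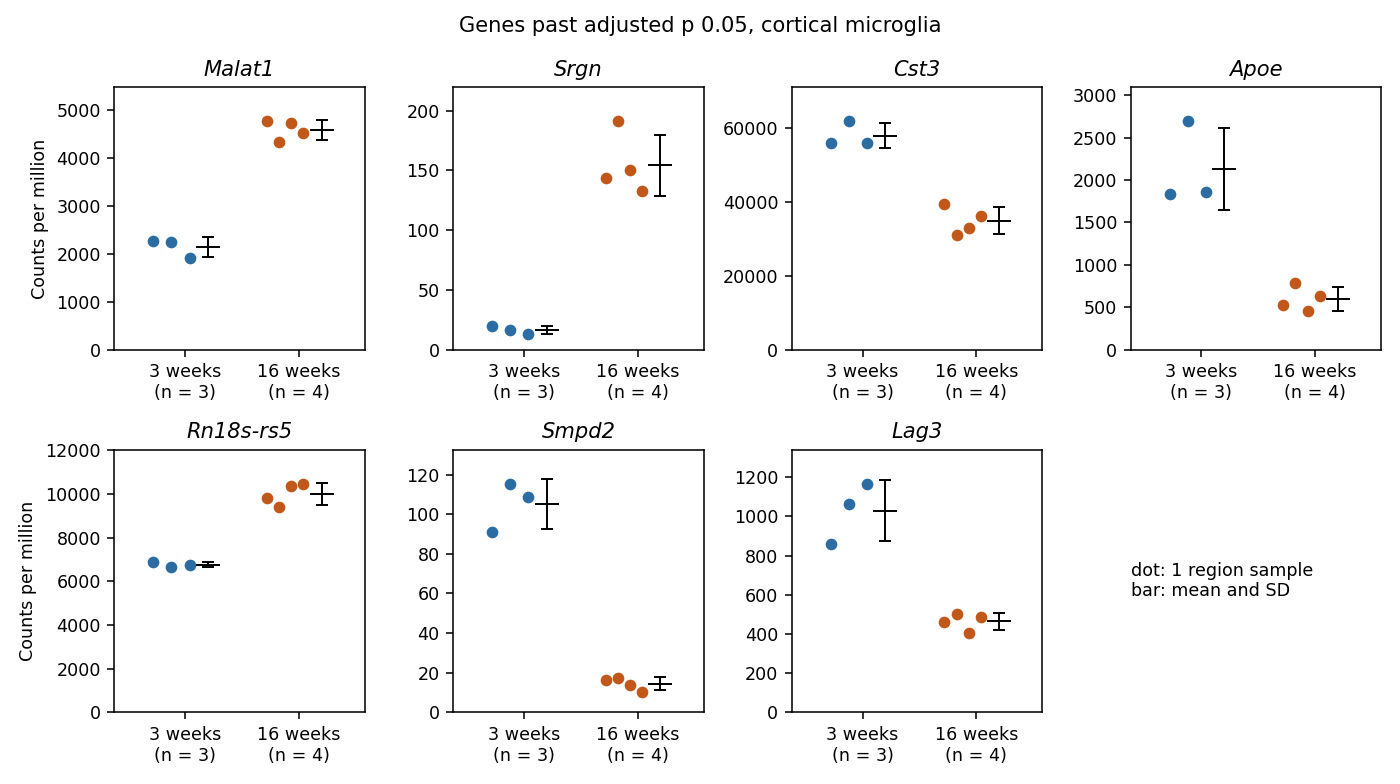
Levels (CPM) of the 7 genes past adjusted p 0.05, by age. Each dot is 1 cortical region sample and each bar the mean with its SD (n = 3 and 4). No gene's samples overlap between the ages: Srgn runs from 12.7 to 19.6 at 3 weeks and from 133 to 191 at 16 weeks.

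Fewer genes passed whenever 1 replicate was left out. Without any 1 of the 3-week replicates, or without 16-week replicate 3, 0 genes passed in edgeR (800 to 851 had unadjusted p under 0.05). Without 16-week replicate 1 Malat1, Srgn and Cst3 passed. Without replicate 2 Malat1 and Apoe did, and without replicate 4 Malat1 and Srgn. Without the wells of plate columns 1 and 2, 6 of the 7 passed and Lag3 had an edgeR adjusted p of 0.0545. The 7 estimates kept their sign in all 161 values computed under other settings. The 211 genes of DESeq2 include the 7.

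The promoters of the genes with the largest rise and the largest fall are shown as the 250 bases before a RefSeq start (GRCm38.p6), 5′ to 3′ on the gene's strand. Of the 7 genes 5 had a promoter window under their symbol in the set used, namely Malat1, Srgn, Cst3, Apoe and Smpd2, and Lag3 and Rn18s-rs5 had none. Capitals mark matches, on either strand, to the PU.1 core GAGGAA, the AP-1 motif TGANTCA, the CCAAT box, the TATA box TATAAA or the GC box GGGCGG. Srgn (chr10:62527446-62527695, minus strand, the upstream one of its listed starts) and Smpd2 (chr10:41490341-41490590, minus strand) read as follows.
Srgn: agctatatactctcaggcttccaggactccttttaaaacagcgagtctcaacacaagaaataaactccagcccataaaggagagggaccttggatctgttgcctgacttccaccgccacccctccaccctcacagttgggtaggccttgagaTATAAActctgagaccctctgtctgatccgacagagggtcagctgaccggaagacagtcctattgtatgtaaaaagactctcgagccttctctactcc
Smpd2: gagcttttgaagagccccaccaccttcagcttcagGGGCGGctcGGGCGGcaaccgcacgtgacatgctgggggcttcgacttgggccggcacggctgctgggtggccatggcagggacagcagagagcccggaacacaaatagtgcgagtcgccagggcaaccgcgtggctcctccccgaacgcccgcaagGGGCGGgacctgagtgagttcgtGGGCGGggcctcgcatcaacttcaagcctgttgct
The Srgn window held 1 TATAAA and the Smpd2 window 4 GGGCGG, with no overlap between matches. Of 32851 RefSeq promoter windows of the same length 12.4% hold TATAAA, 32.7% GGGCGG, 23.3% GAGGAA, 6.75% TGANTCA and 33.8% CCAAT. These matches describe the letters only. The deposited positions of these genes are 62493833 to 62527451 of chromosome 10 for Srgn and 41485642 to 41490369 of the same chromosome for Smpd2.

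Single cells were then compared at 21121 reads each, a depth reached by 143 cells of 3 weeks and 164 of 16 weeks. Reads of Srgn were found in 20%, 16.7% and 12% of cells at 3 weeks and in 48.8%, 43.6%, 59.6% and 54.3% at 16 weeks. The mean share went from 16.2% ± 4.02 to 51.6% ± 6.89, and the median among cells with reads went from 2 to 5 reads. Both the share of cells and the reads per positive cell were thus higher at 16 weeks. The share without thinning was 17% and 54.1%.

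Smpd2 was found in 15.6%, 27.1% and 28% of cells at 3 weeks and in 11.6%, 5.13%, 6.38% and 5.71% at 16 weeks. Among cells with reads the median was 9 and 7 reads. Lag3 was found in 90.7% ± 6.32 of cells at 3 weeks and 74.6% ± 4.49 at 16 weeks. Its median over all cells was 20 and 6 reads. The shares of Srgn, Smpd2 and Lag3 each had exact two-sided permutation p = 0.0286, the smallest 35 splits allow, and adjusted p = 0.0667 over 7 genes. Malat1, Rn18s-rs5 and Cst3 were found in all or nearly all cells, so no adjusted p could fall under 0.05 here. The 7 genes were chosen because they differ between these same samples, so the p-values of shares are no separate support.

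Apoe was found in 77% ± 3 of cells at 3 weeks and 58.7% ± 6.23 at 16 weeks (exact permutation p = 0.0571, adjusted p = 0.1). Among cells with reads the median was 38 reads at 3 weeks and 12.5 at 16 weeks. The tenth of cells with most Apoe reads held 48.4% of them at 3 weeks and 48.1% at 16 weeks. Malat1 and Rn18s-rs5 had reads in every cell at both ages. Their medians were 34 and 91 reads for Malat1, and 133 and 204 for Rn18s-rs5. Cst3 had a median of 1215 reads per cell at 3 weeks and 682.5 at 16 weeks. The 8 blank wells of the same plates held 2237 to 26443 counts (median 4036), so the highest was above the depth of 21121 reads. Cst3 reads were present in 8 of them and totalled 1913, and Rn18s-rs5 reads were present in 8 and totalled 1597. Malat1 reads totalled 107, Lag3 had 5 reads in 3 wells, and Srgn had 1 read in 1 well. Apoe and Smpd2 had 0 reads there.

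**Figure D2:**
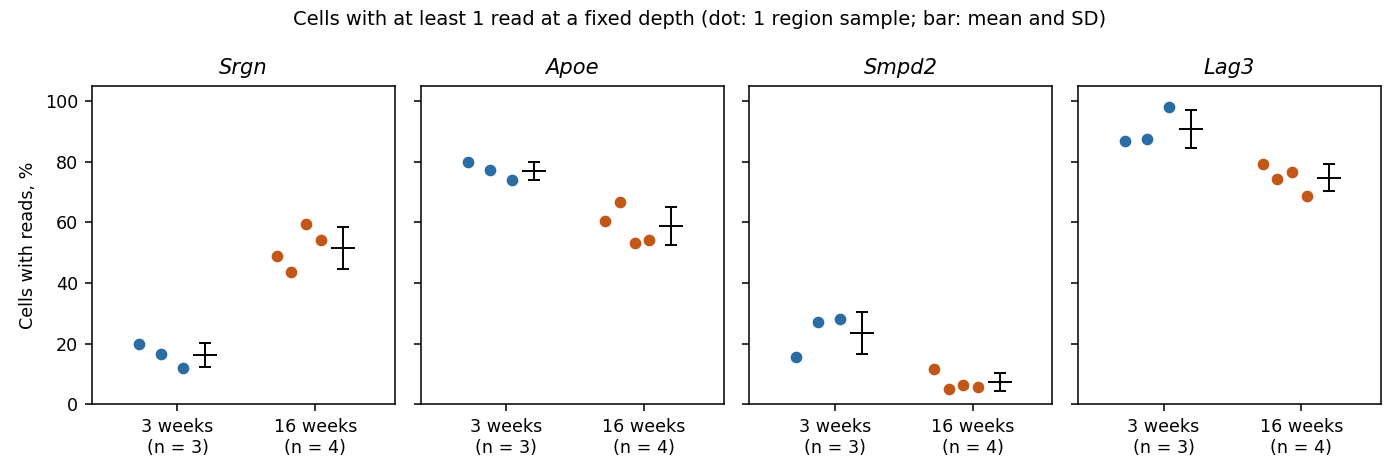
Share of cortical microglia with at least 1 read of Srgn, Apoe, Smpd2 or Lag3 after each cell was thinned to 21121 reads. Dots are region samples and bars the mean with SD (n = 3 and 4). Srgn goes from 12% to 20% of cells at 3 weeks to 43.6% to 59.6% at 16 weeks, and the other 3 genes have lower shares at 16 weeks.

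A further 18 genes were taken by smallest p among those that did not pass and whose ages did not overlap, 8 with higher and 10 with lower estimates at 16 weeks. Over all genes 537 (4.57%) had every 16-week sample above every 3-week sample and 657 (5.59%) every 16-week sample below. Among receptors, P2ry13, a purinergic receptor for ADP, had 2829, 3366 and 3446 CPM at 3 weeks and 5210, 4869, 5520 and 5231 CPM at 16 weeks (log2 0.70 ± 0.10, edgeR adjusted p = 0.0501). In a fit of 35 region samples with region and plate terms and 1 age change shared by 5 regions, its log2 change was -0.065 ± 0.26 (SE). Values with region and plate terms, here and below, are this shared change and not the cortical change alone. With these plates it amounts to the cortical minus hippocampal plus corpus callosum minus cerebellar plus spinal cord change. It is not a mean of the 5 regions, and it cannot say what a cortical change owes to plate. Gpr34, a receptor for lysophosphatidylserine, had 2499, 3710 and 3194 CPM and then 5818, 6497, 6779 and 5007 CPM (log2 0.94, and 0.28 with region and plate terms; edgeR adjusted p = 0.0743). Gpr165, an orphan receptor of the X chromosome, had 255, 299 and 326 CPM and then 36.2, 75.9, 91 and 73.5 CPM (log2 -2.08, edgeR adjusted p = 0.0576). The receptor genes thus had estimates in both directions.

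Sparc, a secreted matricellular protein that binds collagen, had 10448 ± 924 CPM at 3 weeks and 6472 ± 570 at 16 weeks (edgeR adjusted p = 0.0501). Ckb, the brain creatine kinase that buffers ATP, had 688 ± 98.3 and 307 ± 34.8 CPM (edgeR adjusted p = 0.0501). Actb, cytoplasmic actin, had 10307 ± 473 and 7120 ± 518 CPM, Rhob, a small GTPase of endosomes, 1011 ± 215.7 and 541 ± 28.1, and Cyth4, an exchange factor for ARF GTPases, 1597 ± 174 and 957 ± 14.8 (edgeR adjusted p = 0.0576, 0.111 and 0.0576). Gnai2, an inhibitory G protein subunit that couples P2Y and chemokine receptors, had 586 ± 13.7 and 334 ± 16.8 CPM (edgeR adjusted p = 0.0884). Arhgap5, a GTPase-activating protein, had the opposite sign, with 284 ± 36 and 663 ± 96.8 CPM (edgeR adjusted p = 0.0526).

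Lysosomal enzymes were divided. Ppt1, which removes palmitate from proteins, had 372 ± 44 CPM at 3 weeks and 690 ± 67.1 at 16 weeks, and Man2b1, the lysosomal alpha-mannosidase, 2284 ± 265 and 1404 ± 128 (edgeR adjusted p = 0.107 and 0.111). Atp13a2, a lysosomal polyamine transporter, had 239 ± 25.5 and 88.1 ± 15 CPM (edgeR adjusted p = 0.0611). The other 3 were Xab2, a splicing factor, with log2 -1.47, Zfp638, a zinc finger RNA-binding protein, with 1.59, and I830077J02Rik with 1.32. Both mitochondrial ribosomal RNAs, described with their genome below, complete the 18. With region and plate terms the log2 change was 0.27 for Zfp638, -0.48 for Xab2, -0.33 for Atp13a2, -0.40 for Man2b1 and 0.55 for Ppt1. It was -0.15 for Actb, -0.17 for Rhob, -0.22 for Cyth4 and -3.98 for Gpr165. Sparc had -0.890, Ckb -0.998, Gnai2 -1.051, Arhgap5 1.118 and I830077J02Rik 1.351 with those terms. In cortex alone the estimates were -0.691 for Sparc, -1.163 for Ckb, -0.814 for Gnai2, 1.226 for Arhgap5 and 1.32 for I830077J02Rik. Their sizes were similar or larger with region and plate terms, where the SE was 0.210, 0.393, 0.415, 0.484 and 0.735 in that order. As those values add and subtract regional changes, the likeness does not show a cortical change apart from plate. None of the 18 passed there.

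**Figure D3:**
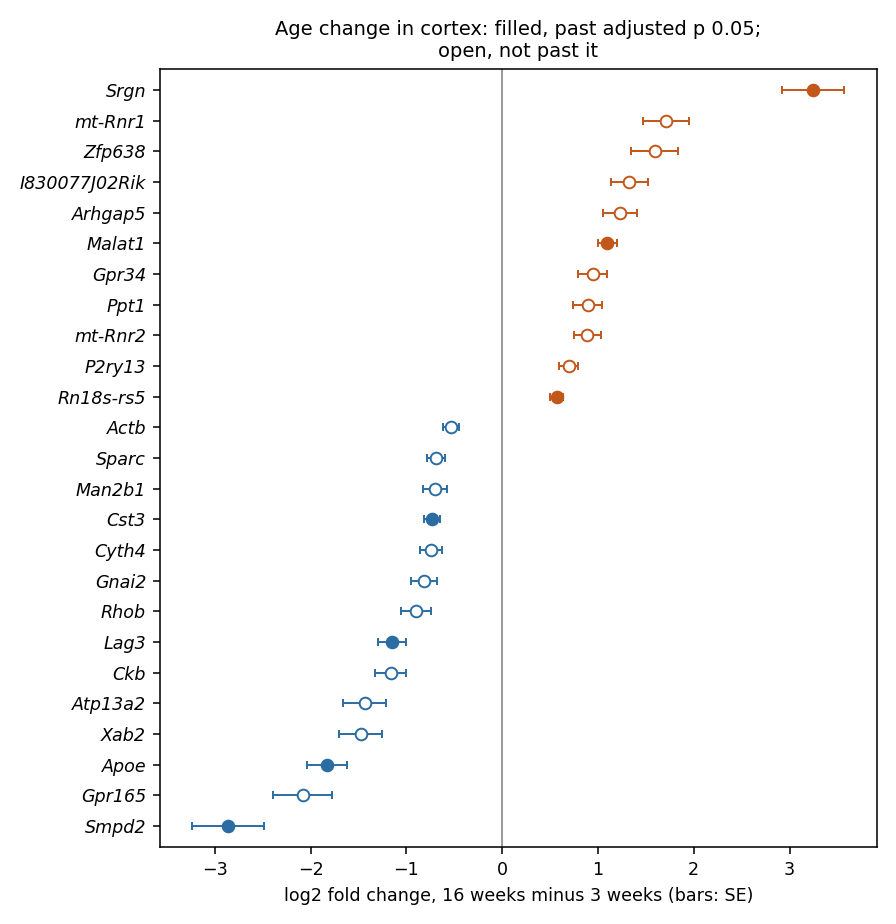
Log2 fold change (16 weeks minus 3 weeks, bars are SE) of the 7 genes past adjusted p 0.05 (filled) and the 18 that follow them and did not pass (open). Srgn has the largest value at 3.25 and Smpd2 the smallest at -2.86.

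Homeostatic microglia genes did not move as 1 block. All 20 members were tested; Cst3 fell and 0 rose. In 6 members every 16-week sample was higher and in 7 every 16-week sample was lower, both larger shares than the 4.57% and 5.59% of all genes, and the median log2 change was 0.05, the same as over all genes. P2ry12, P2ry13, Cx3cr1, Siglech and Gpr34 were among the 6. P2ry12, the ADP receptor of process movement, had 9587 ± 979 CPM at 3 weeks and 12196 ± 762 at 16 weeks (log2 0.35 with TMM, -0.01 with spike-in scaling and -0.33 with region and plate terms; edgeR adjusted p = 0.316).

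The 7 with lower values were Cst3, Sparc, Csf1r, Tmem119, Selplg, Crybb1 and C1qa. Csf1r, the receptor microglia need for survival, had 17021, 19874 and 19780 CPM at 3 weeks and 14089, 15189, 15050 and 14952 CPM at 16 weeks (edgeR adjusted p = 0.182). Tmem119, a membrane protein used to mark microglia, had 7854, 8188 and 9415 CPM and then 5778, 6888, 6590 and 6780 CPM (edgeR adjusted p = 0.274). Crybb1, a crystallin gene, had 386, 332 and 277 CPM and then 86.8, 49, 116 and 138 CPM (log2 -1.77, edgeR adjusted p = 0.14). Per spike-in read the list had 1 member higher and 9 lower without overlap, where all genes had 1.95% and 12.1%.

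Complement showed its 3 C1q chains on 1 side. C1qa had 4393, 4309 and 5283 CPM at 3 weeks and 3522, 3863, 3912 and 3935 CPM at 16 weeks. C1qb had 4461, 4852 and 5436 CPM and then 3617, 4181, 3697 and 4004 CPM. C1qc had 3223, 3320 and 3215 CPM and then 2059, 2296, 2516 and 2543 CPM. None passed (edgeR adjusted p = 0.476, 0.372 and 0.202), although the ages did not overlap for any chain. These were 3 of 9 tested members of the list, whose median log2 change of 0.22 has the opposite sign.

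Of 14 tested phagocytic and disease-associated genes Apoe fell, 4 were lower without overlap (28.6%, beside 5.59% of all genes) and 0 higher (4.57% of all genes), and the median log2 change was -0.16. Besides Apoe these were Lpl, Ctsb and Cd68. Lpl, lipoprotein lipase, had 14.4, 10.1 and 2.74 CPM at 3 weeks and 0.115, 0, 0.233 and 0.487 CPM at 16 weeks (edgeR adjusted p = 0.38). Cd68, a lysosomal membrane glycoprotein of phagocytes, had 1031, 1265 and 1066 CPM and then 914, 821, 896 and 883 CPM (edgeR adjusted p = 0.493). Of 12 tested lipid carriers and efflux genes 3 were lower and 0 higher without overlap (Apoe, Lpl and Lrp1; median -0.26), so Apoe and Lpl count in both lists, and of 17 cholesterol synthesis genes 0 in either direction (median 0.04). Of 24 lysosomal genes 2 were higher (Lamp2 among them) and 5 lower (Ctsb, Ctsf, Psap, Laptm5 and Cd68), with a median of -0.13.

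Receptors that sense the surroundings, 25 tested, had 6 members higher (24%) and 4 lower (16%) without overlap. Over all genes these shares were 4.57% and 5.59%. The median of the list was 0.33, and 0 passed. With spike-in scaling that median was -0.03. Per spike-in read 1 member was higher and 5 were lower without overlap, where all genes had 1.95% and 12.1%. By library size the 6 were P2ry12, P2ry13, Cx3cr1, Clec5a, Cd33 and Siglech, and the 4 were P2ry6, Csf1r, Fcer1g and Tyrobp. Tyrobp, the adaptor of TREM2, had 1163, 1218 and 1233 CPM at 3 weeks and 911, 858, 804 and 740 CPM at 16 weeks (edgeR adjusted p = 0.204). P2ry6, the UDP receptor that triggers uptake, had 665, 909 and 910 CPM and then 419, 482, 478 and 525 CPM (edgeR adjusted p = 0.176). Of 15 checkpoint and adhesion receptors Lag3 fell. Without overlap 4 were lower (26.7%) and 1 higher (6.67%, near the 4.57% of all genes), with a median of -0.18. The higher one was Havcr2, the checkpoint receptor TIM-3, with 284, 484 and 374 CPM and then 754, 822, 717 and 875 CPM (edgeR adjusted p = 0.13).

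Granule and secreted proteins, 14 tested, included Srgn, which rose, and Cst3, which fell. Without overlap 2 were higher (14.3%) and 4 lower (28.6%), beside 4.57% and 5.59% of all genes (median -0.18). Of 12 TGF-beta genes 1 was higher and 1 lower (8.33% each, median 0.08). Of 19 transcription factors 2 were higher and 2 lower (10.5% each, median -0.02). Counts this small are not read as a change of either list. The higher transcription factors were Mef2a and Mef2c (log2 0.28, and -0.07 with spike-in scaling), and Spi1 was among the lower. Spi1, which encodes PU.1, had 401, 473 and 430 CPM at 3 weeks and 330, 313, 335 and 352 CPM at 16 weeks (edgeR adjusted p = 0.554).

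The 9 tested genes of the mitochondrial genome had estimates above 0 in the TMM-scaled fit, and 8 of 9 with spike-in scaling. Another 6, mt-Co2 and mt-Co3 among them, are listed at 0 in all 7 samples, although cells use them. Of the 9 tested 7 (77.8%, beside 4.57% of all genes) had every 16-week sample above every 3-week sample and 0 below (median 0.70), and 0 passed. Per spike-in read 2 of the 9 had every 16-week sample above (median 0.36), where 1.95% of all genes did. mt-Rnr1, the small ribosomal RNA, had 236, 224 and 124 CPM at 3 weeks and 673, 609, 543 and 726 CPM at 16 weeks (log2 1.71, and 0.20 with region and plate terms; edgeR adjusted p = 0.0501). mt-Rnr2, the large one, had 4595, 4031 and 3137 CPM and then 7718, 7907, 6293 and 7131 CPM (log2 0.89, and 0.07 with region and plate terms; edgeR adjusted p = 0.06). mt-Co1, a subunit of cytochrome oxidase, had 1842, 1770 and 1512 CPM and then 2688, 3227, 2296 and 2902 CPM (edgeR adjusted p = 0.155). The nuclear genes of oxidative phosphorylation did not follow them. Of 84 tested 2 were higher (2.38%) and 9 lower (10.7%) without overlap, beside 4.57% and 5.59% of all genes (median -0.08). The mitochondrial genes are the ones that give the mitochondrial share above, so share and list are not separate observations.

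Nuclear noncoding RNAs, 12 tested, had 5 members higher (41.7%) and 1 lower (8.33%) without overlap, beside 4.57% and 5.59% of all genes (median 0.62). Of the 5 Malat1 rose. The other 4 were Xist, Tsix, Kcnq1ot1 and Mir99ahg. The deposited spans of Xist and Tsix overlap, and with strand use in counting not given they may not be separate observations. Xist, the RNA of the inactive X chromosome, had 674, 636 and 609 CPM at 3 weeks and 1049, 973, 818 and 956 CPM at 16 weeks (log2 0.57 and -0.20 with region and plate terms; edgeR adjusted p = 0.232). Reads of 4 Y-linked genes were at or near 0 in all 7 samples, with 0.123 CPM as their highest level. Splicing factors, 22 tested, had 5 higher (22.7%) and 1 lower (4.55%) without overlap, and 0 passed. Their median was 0.27, and -0.07 with spike-in scaling. Ddx5, an RNA helicase, had 1439, 1730 and 1525 CPM and then 1932, 3132, 3161 and 2615 CPM (edgeR adjusted p = 0.204).

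Of 20 actin cytoskeleton genes 6 were lower and 1 higher without overlap (30% and 5%, beside 5.59% and 4.57% of all genes; median -0.22), and 5 had estimates above 0. Among the lower was Cfl1, the actin-severing cofilin, with 331, 329 and 309 CPM at 3 weeks and 173, 173, 161 and 164 CPM at 16 weeks (edgeR adjusted p = 0.111). Of 15 glycolysis genes 4 were lower and 0 higher (Hk2, Hk3, Aldoa and Pkm; median -0.26), and 6 had estimates above 0. Of 79 cytosolic ribosomal protein genes 14 were lower and 0 higher (17.7% lower; median -0.13), and 30 had estimates above 0. None of these lists had a member past the threshold.

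Immune activation and cell cycle lists had few members without overlap, where all genes had 4.57% higher and 5.59% lower. Of 14 immediate early and stress genes 2 were lower and 0 higher (median -0.20), and of 14 chemokines and cytokines 1 was higher and 0 lower (median 0.60). The immediate early sum was 2026 to 2365 CPM at 3 weeks and 1609 to 2025 at 16 weeks. The chemokine and cytokine sum was 486 to 667 CPM and 673 to 949 CPM. The type I interferon list (14 tested, median 0.40), MHC class I (15, median 0.05) and MHC class II (7, median 0.35) had 0 members without overlap in either direction. The S phase list had 1 of 15 higher (median 0.62, summed level 187 to 370.5 CPM at 3 weeks and 426 to 603 at 16 weeks). The G2/M list had 0 of 8 (median 1.46, summed level 8.93 to 41.1 CPM at 3 weeks and 25.3 to 137 at 16 weeks). The immediate early, chemokine and S phase sums did not overlap between the ages, and the other sums did. At this depth and number of samples no member of these lists was told apart between the ages by the test.

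**Figure D4:**
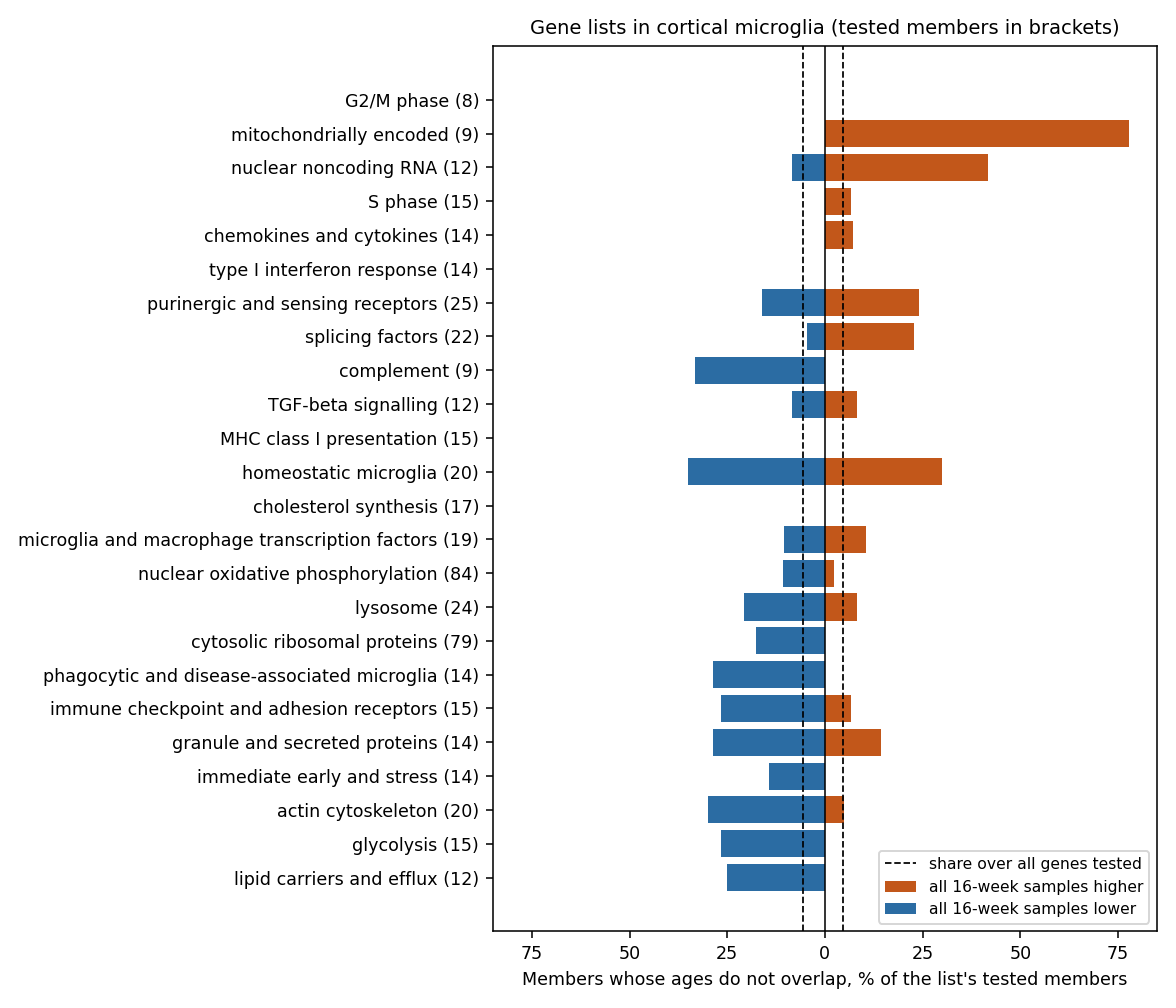
Share of each list's tested members (number in brackets) whose 16-week samples are all higher (right) or all lower (left) than the 3-week samples, ordered by median log2 change. Dashed lines mark 4.57% and 5.59%, the shares over all genes tested; the mitochondrially encoded list reaches 7 of 9 on the right.

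Markers of other cells were summed per sample. Summed neuron markers were 6.78 to 23.7 CPM at 3 weeks and 11.5 to 49.6 at 16 weeks, monocyte markers 16.2 to 29.3 and 25.9 to 85.3, oligodendrocyte markers 159 to 234 and 135 to 153, endothelial and pericyte markers 78.1 to 144 and 31.2 to 96.5, and astrocyte markers 145 to 298 and 271 to 365. T and NK cell, neutrophil and erythroid sums stayed at 8.34 CPM or lower. Of 12 border macrophage markers 3 were tested, and Lyve1, Pf4 and Fcna had 0 counts in all 7 samples. Mrc1, which encodes the CD206 used in the sort, had 55.1 CPM in 3-week replicate 1 and 0 to 8.5 CPM in the other 6 samples. B cell markers summed to 562 to 691 CPM and 728 to 1154 CPM, most of it Ighm, whose levels were 557 ± 55.8 and 860 ± 190 CPM. The oligodendrocyte sums were lower and the B cell sums higher at 16 weeks without overlap, and the neuron, monocyte, endothelial and astrocyte sums overlapped; their part in the gene changes was not tested.

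The same genes were followed in the other 4 regions to see what was particular to cortex. In 1 fit of 35 region samples of 5 regions 37 of 19580 genes passed for the cortical age change (0.189%), 18 higher and 19 lower, among them 5 of the 7. The other 2 were Apoe, with log2 -1.83 ± 0.70 and an adjusted p of 0.605, and Lag3, with -1.15 ± 0.34 and 0.359, where the estimates were close to those of the 7-sample fit. Genes that passed there and not in the 7-sample edgeR fit included Lpcat2, a lysophospholipid acyltransferase (log2 0.67 in the 7-sample fit), Havcr2 (1.06) and C1qc (-0.47). Eef2, the translation elongation factor (-0.98, but 0.09 with region and plate terms), Arhgap4 (-0.93) and Cotl1, an actin-binding protein (-0.996, but -0.065 with those terms), were also among them. The difference between the cortical and the hippocampal change passed for 0 genes (0% of 19580; edgeR's quasi-likelihood test, 1574 with unadjusted p under 0.05; DESeq2 called 375). Against the mean change of the other 4 regions 0 genes passed in edgeR (1039 with unadjusted p under 0.05; DESeq2 called 341). These fits treat all region samples as independent, although several regions came from the same mice, and which samples share a mouse was not modelled. No age change is called particular to cortex here.

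The smallest adjusted p against the 4 regions, 0.16, was shared by C1qc, C1qa, Cst3 and mt-Rnr1. C1qc had 3268 ± 57.6 CPM at 3 weeks and 2360 ± 227 at 16 weeks in cortex, where cerebellum had 2134 ± 194 and 2667 ± 121. Its log2 change was -0.47 in cortex, -0.23 in hippocampus, -0.06 in corpus callosum, 0.32 in cerebellum and 0.21 in spinal cord. The cortical change was lower than the mean of the 4 by 0.53 ± 0.10, a difference of -0.53. For C1qa that difference was -0.51, for Cst3 -0.48 and for mt-Rnr1 0.97. Srgn was higher at 16 weeks in each region. Its means at 3 weeks were 16.3 in cortex, 16.3 in hippocampus, 39 in corpus callosum, 48 in cerebellum and 70.1 in spinal cord, and at 16 weeks 155, 190, 186, 136 and 205 CPM. Smpd2 was at 14.5 ± 3.19 CPM in cortex at 16 weeks, below the 52 to 77.8 CPM of the other 4 region means at that age. The lowest single 16-week samples were at 13.3 CPM in spinal cord, 17.5 in corpus callosum, 30.2 in cerebellum and 49 in hippocampus. Its difference from the mean change of the 4 regions did not pass (edgeR adjusted p = 0.2).

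The plates ran alongside these levels. On the plate of 3-week cortex and hippocampus Malat1 had means of 2154 and 2035 CPM, mt-Rnr1 196 and 206, and Cst3 58103 and 57077. On the plate of 16-week cortex, 3-week spinal cord had 3798 ± 95.2 CPM of Malat1, 717 ± 121 of mt-Rnr1 and 33740 ± 1593 of Cst3, against 4602 ± 243, 639 ± 74.9 and 34976 ± 3765 in 16-week cortex. Lag3 had 412 ± 73.9 CPM in 3-week spinal cord, against 465 in 16-week and 1034 in 3-week cortex, and Rn18s-rs5 had 9492 ± 421 against 10041 and 6787. For Malat1, mt-Rnr1, Cst3, Lag3 and Rn18s-rs5 the 3-week spinal cord mean was thus nearer to 16-week cortex on the same plate than to 3-week cortex. The Srgn mean of 70.1 and the Smpd2 mean of 55.3 lay between those of 3-week and 16-week cortex. Apoe was nearer to 3-week cortex, with 3016 ± 998 CPM in 3-week spinal cord and 600 ± 139 in 16-week cortex. On a plate without cortical cells, 3-week cerebellum had 3851 CPM of Malat1, 478 of mt-Rnr1, 28626 of Cst3 and 497 of Lag3. These means were also nearer to 16-week than to 3-week cortex, and its Rn18s-rs5 mean of 7652 was not. Corpus callosum of 3 weeks, on that plate too, had 2814 CPM of Malat1 and 7471 of Rn18s-rs5, nearer to 3-week cortex. Its means of 472 for mt-Rnr1, 46048 for Cst3 and 597 for Lag3 were nearer to 16-week cortex. Region and plate were not tested apart. A fit with region and plate terms and 1 age change shared by the 5 regions called 8 genes, all higher, and the median log2 change over all genes was 0.42 there. In that fit 0 of the 7 passed. The estimates were 0.25 ± 0.25 (SE) for Malat1, 1.99 ± 0.69 for Srgn, 0.34 ± 0.17 for Rn18s-rs5 and -0.69 ± 0.20 for Cst3. Those of Apoe, Smpd2 and Lag3 were -2.07 ± 1.56, -2.66 ± 1.23 and -0.55 ± 0.775. Because that fit adds and subtracts regional changes, these values do not show what each cortical change owes to plate.

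**Figure D5:**
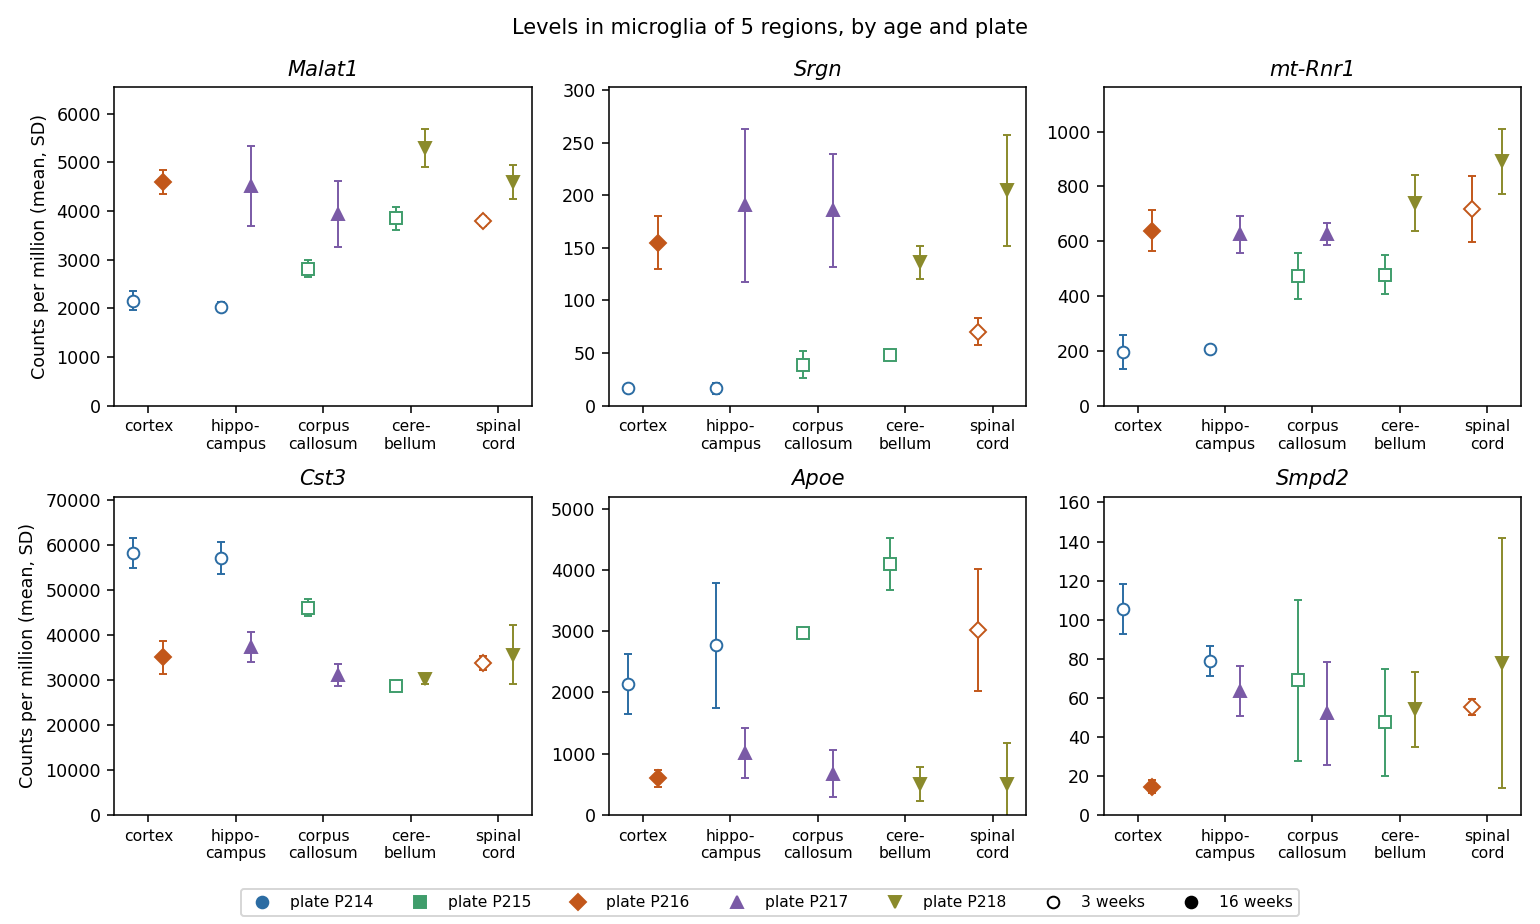
Mean level (CPM) with SD of 6 genes in microglia of 5 regions at 3 weeks (open, n = 3) and 16 weeks (filled, n = 4), coloured by plate; SD bars stop at 0. Cortex and hippocampus of 3 weeks share a plate and lie close together, at 2154 and 2035 for Malat1, and 16-week cortex shares its plate with 3-week spinal cord.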

How the data were processed

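The authors deposited whole-number read counts per gene and well, for which the submitters' processing notes name the aligner STAR (2.5.2b), the counter featureCounts (1.6.2) and the build GRCm38; per the file headers each gene row also has positions and a summed exon length. Members, gene lists and tests were chosen with earlier results of these data known. From wells of plate columns 1 and 2 the counts of same-row wells whose names start the same were subtracted: on the plate of 3-week cortex this left 0 of 258249 gene rows below 0, where the next row's wells left 63.72% below 0. Wells with at least 500 genes and at most 20% mitochondrial counts were kept and summed per replicate; no doublet caller was run on cells sorted singly. Column names of all 2688 wells matched the labels, with 0 unmatched. Spike-ins took 0.224% of cortical counts and were left out of library sizes.

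Ages were compared with edgeR 4.0.16 (R 4.3.3; TMM, filterByExpr by group, robust quasi-likelihood F test, two-sided, Benjamini-Hochberg over all genes tested). SE is the log2 fold change over the square root of F. Levels in the regional comparison come from the fit of 35 samples and differ slightly from those of the 7-sample fit. Shares of cells and sample measures were compared by exact two-sided permutation over 35 splits. Named are genes past 0.05, then those of smallest p without overlap up to 25 in all, and those past 0.05 in the 35-sample fit without overlap. The 2 most abundant members of each of 36 lists were added. After seeing the values, genes named for abundance alone were left out under a mean of 100 CPM (20 genes). Outside this rule further list members were named with their values known. Among them were Tmem119, Crybb1, Cd68, Tyrobp, P2ry6, Spi1 and Cfl1, and Lpl and Mrc1 with levels under 100 CPM. A few list members count in their lists but are not reported here by name. The test was tried on simulated data. DESeq2 1.42.0, limma 3.58.1, other scalings, filters, depths, a replicate block, plate terms and leaving out each replicate were the alternatives. P-values measure the spread between these samples.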

Additional observations from a re-analysis of the deposited data

How the results depend on the processing

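Of 7 genes past the threshold in edgeR's quasi-likelihood test, other settings gave 26 with the counts as deposited, 211 with DESeq2, 11 with RLE size factors, 30 with spike-in scaling, 21 with limma voom, 98 with no filter on low counts, 17 with CPM above 5 in at least 3 samples, 59 with cells thinned to 1 depth, 99 with the mean of per-cell CPM and 37 in the fit of 35 samples. With region and plate terms that fit gave 8, all higher and none of them among the 7. Leaving out each replicate gave 0 to 3. The 7 genes kept direction in all 161 values, 100 of them past the threshold. The 2 regional differences went from 0 to 375 (hippocampus) and 341 (4 regions) with DESeq2, and to 25 and 25 with no filter. The replicate numbers share only a number: deviations of same-numbered samples correlated at 0.0407, -0.0105 and -0.0017 across genes, and the replicate block gave 0 genes (796 with unadjusted p under 0.05). Lists per spike-in read were added after seeing the data. Depth per cell limited shares to cells of 21121 reads or more, and detected genes turned to 125.2 in cells not thinned.

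For some genes the sign turned, and no value with a turned sign passed the threshold. With region and plate terms the log2 change was -0.065 for P2ry13, 0.056 for Ctsb, -0.327 for P2ry12, 0.047 for Tgfbr1, -0.002 for Mef2c, 0.384 for Btg2, -1.245 for Il1a, 0.279 for Ccl6, -0.447 for B2m, 0.766 for Hk3, -0.234 for Ddx5, -0.199 for Xist and 0.092 for Eef2. With spike-in scaling it was -0.014 for P2ry12, -0.151 for Tgfbr2, -0.074 for Mef2c, -0.238 for B2m, -0.180 for H2-D1, -0.193 for H2-Ob and -0.172 for Rpl4. Tgfbr1 had 0.125 with thinned cells and 0.274 with per-cell CPM, Tmsb4x 0.068 with per-cell CPM, and H2-Ob -0.126 with voom and -0.157 with the block. With 1 replicate left out the values ran from -0.125 to 0.039 for Tgfbr1, -0.452 to 0.091 for Ccl6, -0.087 to 0.484 for H2-D1 and -0.280 to 0.794 for H2-Ob. The cause was not tested.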
